A study of Mus musculus with 8 samples.

Results

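The effect of switching on the kinase PERK was measured in livers of mice without the transcription factor ATF4. Of the 8 arrays of the study, the 4 labelled Atf4-/- by their source names were compared, 2 from AP20187-treated livers and 2 from untreated livers. The other 4 arrays, 2 treated and 2 untreated Atf4+/+ livers, served to set each difference beside the one seen in the other genotype. Every mouse carried the transgene TTR::Fv2E-PERK of a single low-expressing line, in which the transthyretin promoter, active in hepatocytes, drives a PERK kinase fused to an artificial dimerization domain. AP20187 is the drug that brings these domains together and so activates the kinase, and the series title sets it against a mock injection. The mice were siblings on a mixed FvB/n and Swiss Webster background, while age, sex, dose and time are not stated in what was used here. Nothing in the labels tells whether each array stands for its own mouse, and p-values cover the spread between these samples, which may be technical.

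PERK is a kinase of the endoplasmic reticulum that phosphorylates the translation factor eIF2 when unfolded protein builds up there. General protein synthesis then falls while the mRNA of ATF4 is translated more, and ATF4 switches on genes of amino acid supply, transfer RNA charging and stress adaptation, a programme called the integrated stress response. CHOP (gene Ddit3), ATF3, ATF5 and TRIB3 belong to its outer layers, and the liver is a tissue in which the pathway also touches lipid and glucose metabolism.

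The values are the authors' ratios of each probe set, for most probe sets to its own median over the 8 arrays, so that they compare arrays and give no level between genes. Differences were taken on the log2(ratio + 0.1) scale, treated minus untreated, which understates the change of low ratios. They were tested with limma in 1 fit of 4 group means to all 8 arrays, with Benjamini-Hochberg adjustment over 12422 probe sets. No difference between the treated and untreated Atf4-/- arrays passed an adjusted p of 0.05 (0 of 12422, 0.0%), and 1 (0.00805%) was under 0.1. At an unadjusted limma p under 0.05 there were 922 probe sets (7.42%), of which 530 (4.27%) were higher and 392 (3.16%) lower in treated livers. Everything named below is therefore a value that did not pass the test over all probe sets, with its size and SE, and lists are counted at an unadjusted p under 0.05. Where a list described below had 0 genes at that p in a direction, leaving out a single array gave at most 1, other than 2 lower dendritic cell genes without untreated Atf4-/- replicate 2. Leaving out an Atf4+/+ array acts on these counts through the shared spread alone. Where a gene has several probe sets, 1 stands for it by a fixed rule and the others are given beside it where they differ. Over the 8251 genes so represented, 4.41% were higher and 2.85% lower at an unadjusted p under 0.05. In 21.8% of these genes both treated arrays lay above both untreated arrays, in 22.1% both lay below, and 48.9% had a difference above 0. Across probe sets the log2 ratios of the treated Atf4-/- arrays had a Pearson correlation of 0.365, and those of the untreated Atf4-/- arrays of 0.26. Probe sets are not independent replicates, so this is a description.

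The genotype labels were checked on Atf4 itself. Its ratio was 0.25 and 0.33 in the treated Atf4-/- arrays, against 0.29 and 1.67 in the untreated ones. It was 4.17 and 5.75 in the treated Atf4+/+ arrays, against 2.36 and 0.3 in the untreated ones. Both treated Atf4-/- arrays were thus low, while the array labelled untreated Atf4-/- replicate 2 was high and the array labelled untreated Atf4+/+ replicate 2 was low, each against its label. The array labelled untreated Atf4-/- replicate 1 carries both genotypes in its labels, Atf4-/- in the source name and Atf4+/+ in the description, and its ratio of 0.29 was low. The extent of the deletion is unstated, and the probe set may lie outside it. The untreated arrays are named below as labelled, every difference in Atf4-/- liver rests on them, and larger moves of a list count when a single array was left out are given beside it. Eif2ak3, the gene of PERK, had ratios of 0.98 and 1.01 in treated against 1.45 and 0.61 in untreated Atf4-/- arrays, with a log2 difference of 0.06 ± 0.40 (SE). Its sign turned without untreated replicate 2 (-0.50).

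The smallest p belonged to B3galt1, a galactosyltransferase gene of glycan assembly. Its ratio was 1.83 and 1.68 in treated against 0.16 and 0.18 in untreated Atf4-/- arrays. The log2 difference was 2.78 ± 0.21 (SE, limma adjusted p = 0.0957), beside 3.39 in Atf4+/+ livers. The groups lay far apart and both pairs of replicates were close. Ifrd1, a transcriptional coregulator gene whose mRNA is stabilised in stress, had 1.74 and 2.02 in treated against 0.18 and 0.23 in untreated Atf4-/- arrays. Its difference was 2.70 ± 0.28 (SE, limma adjusted p = 0.119), beside 2.96 in Atf4+/+ livers. Igfbp1, the gene of a liver-secreted binding protein of insulin-like growth factors, had 1.57 and 2.12 in treated against 0.3 and 0.39 in untreated Atf4-/- arrays, a difference of 2.12 ± 0.25 (SE, limma adjusted p = 0.166), and a second probe set of it gave 0.04. In Atf4+/+ livers its difference was 2.04. For these 3 genes the test of the difference between genotypes gave limma adjusted p-values of 0.933, 0.956 and 0.983, with differences (Atf4-/- minus Atf4+/+) of -0.61 ± 0.30, -0.26 ± 0.39 and 0.08 ± 0.35. A p that misses the threshold does not show that the genotypes respond alike, and the SEs leave room for sizeable differences.

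Among the regulators of the integrated stress response, 7 of 15 measured genes were higher in treated Atf4-/- livers at an unadjusted limma p under 0.05 and 0 were lower, against 4.41% and 2.85% of all genes. Their median log2 difference was 0.85, beside -0.01 over all genes. In Atf4+/+ livers 10 of the 15 were higher (4.98% of all genes) and the median was 1.89. The list includes Ifrd1, and its genes were chosen with earlier results of these data known. When both untreated arrays whose Atf4 ratio stood against the label were left out, a setting added after the data were seen, the count was 5.

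Atf3, a stress-induced transcription factor gene, had ratios of 1.72 and 2.82 in treated against 0.14 and 0.19 in untreated Atf4-/- arrays. The difference was 3.13 ± 0.46 (SE, limma adjusted p = 0.239), and its other probe sets gave 2.62 and -0.27. Ddit3, the gene of the transcription factor CHOP, had 1.7 and 2.52 against 0.3 and 0.11, a difference of 2.91 ± 0.48 (SE, limma adjusted p = 0.298). In both genes the treated and untreated arrays stood well apart. Trib3, which encodes a pseudokinase that binds AKT and ATF4, had 1.8 and 1.73 in treated against 0.03 and 0.27 in untreated arrays, a difference of 3.09 ± 0.67 (SE, limma adjusted p = 0.429). Atf5, another transcription factor gene whose mRNA is translated when eIF2 is phosphorylated, had 2.35 and 1.53 in treated against 0.11 and 0.46 in untreated arrays. Its difference was 2.54 ± 0.48 (SE, limma adjusted p = 0.333). Ddit4, an inhibitor gene of the growth kinase mTORC1, had 2.11 and 2.71 against 0.42 and 0.65 and a difference of 2.0 ± 0.61 (SE, limma adjusted p = 0.579). For Trib3, Atf5 and Ddit4 the groups again did not overlap, with the treated arrays above, which held in 21.8% of all genes. The seventh gene was Cebpg, a partner of ATF4 on DNA, which was named after its values were seen (0.85). Cebpb, a liver transcription factor gene, stood at 0.90 ± 0.39 and Ppp1r15a, the gene of GADD34 that returns eIF2 to its unphosphorylated form, at 0.39 ± 0.26 (SE), neither with a p under 0.05. Vldlr, a lipoprotein receptor gene, stood at -0.22 ± 0.34 and its second probe set at -0.17.

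Nupr1, the gene of a small stress-induced chromatin protein, was the regulator with the widest gap between genotypes. It had ratios of 2.54 and 0.43 in treated against 0.45 and 1.55 in untreated Atf4-/- arrays, and the groups overlapped. The difference was 0.31 ± 0.86, beside 6.74 in Atf4+/+ livers, where treated arrays had 18.55 and 38.4 and both untreated arrays 0.15. The difference of the differences was -6.43 ± 1.22 (SE, limma adjusted p = 0.594). Among these stress genes Atf3 (-2.05 ± 0.65, limma adjusted p = 0.901) also had a smaller difference in Atf4-/- than in Atf4+/+ livers at an unadjusted p under 0.05, and so did Atf4 itself (-3.43 ± 1.39). Over all 12422 probe sets 678 (5.46%) had an unadjusted p under 0.05 for this difference and 0 (0.0%) passed an adjusted p of 0.05, with 2 (0.0161%) under 0.1. The values for Trib3 (-2.25 ± 0.95), Ddit3 (-1.28 ± 0.68), Ddit4 (-0.61 ± 0.87) and Atf5 (0.65 ± 0.68) had p-values above 0.05.

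**Figure D1:**
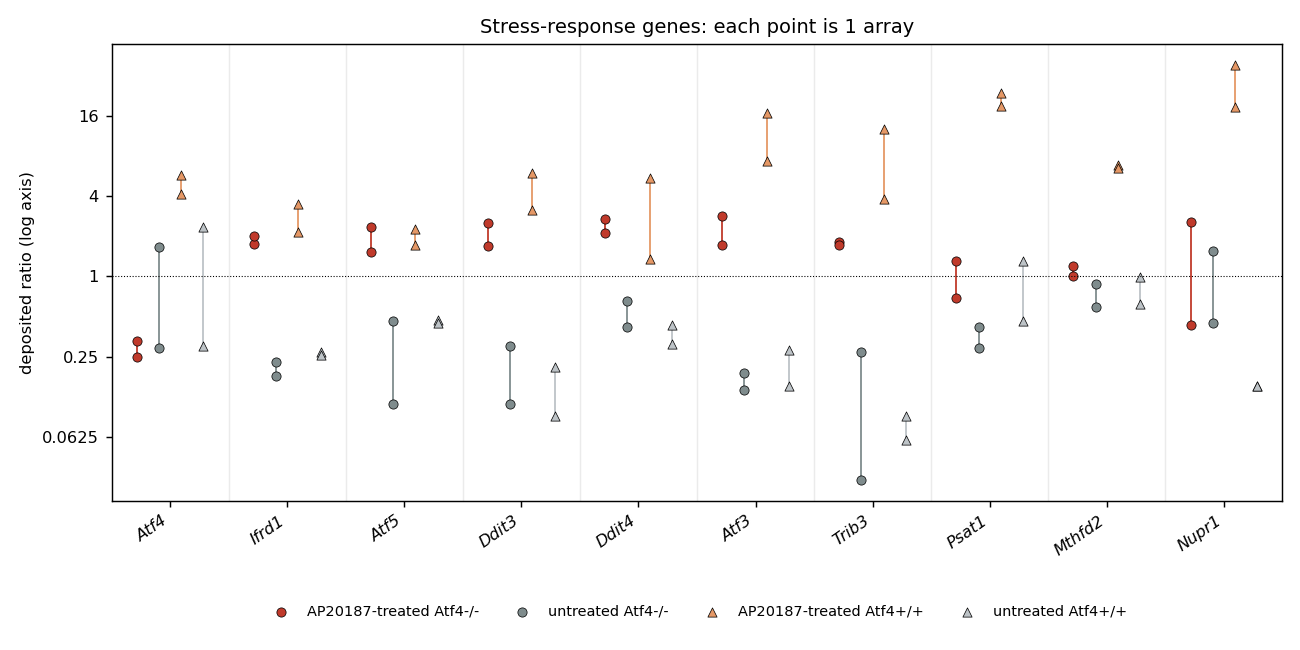
Deposited ratios of 10 genes of the stress response on a log axis, 1 point an array and a line between the 2 arrays of a group, with the groups from left to right as in the legend. The treated Atf4-/- arrays lie above the untreated Atf4-/- arrays for Ifrd1, Atf5, Ddit3, Ddit4, Atf3, Trib3, Psat1 and Mthfd2 and overlap them for Nupr1. The Atf4 panel shows 1 untreated array of each genotype on the other side of its label.

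Sequences around the transcription starts of Atf3, Trib3, Nupr1 and Ifrd1 are shown because these genes cover the range of responses without ATF4, from a difference like that in Atf4+/+ livers (Ifrd1) to none that exceeded the spread (Nupr1). The windows are RefSeq starts on GRCm38.p6 with 300 bases each, 5′ to 3′ on the strand of the gene, and capitals mark matches of the C/EBP-ATF response element TGATGNAA on either strand. Atf3 lies at chr1:191183284-191183583 (minus strand), Trib3 at chr2:152344011-152344310 (minus strand), Nupr1 at chr7:126625421-126625720 (minus strand) and Ifrd1 at chr12:40223140-40223439 (minus strand).
Atf3: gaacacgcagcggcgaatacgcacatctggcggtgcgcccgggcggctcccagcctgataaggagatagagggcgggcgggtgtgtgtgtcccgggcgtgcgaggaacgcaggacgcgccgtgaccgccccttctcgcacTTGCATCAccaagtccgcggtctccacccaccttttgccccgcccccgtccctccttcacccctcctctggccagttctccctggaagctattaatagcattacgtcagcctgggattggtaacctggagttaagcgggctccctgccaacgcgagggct
Trib3: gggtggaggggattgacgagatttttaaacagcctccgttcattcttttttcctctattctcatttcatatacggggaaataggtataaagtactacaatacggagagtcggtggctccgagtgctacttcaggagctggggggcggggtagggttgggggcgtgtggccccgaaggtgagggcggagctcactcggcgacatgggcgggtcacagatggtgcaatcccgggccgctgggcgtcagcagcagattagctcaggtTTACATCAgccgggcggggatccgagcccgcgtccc
Nupr1: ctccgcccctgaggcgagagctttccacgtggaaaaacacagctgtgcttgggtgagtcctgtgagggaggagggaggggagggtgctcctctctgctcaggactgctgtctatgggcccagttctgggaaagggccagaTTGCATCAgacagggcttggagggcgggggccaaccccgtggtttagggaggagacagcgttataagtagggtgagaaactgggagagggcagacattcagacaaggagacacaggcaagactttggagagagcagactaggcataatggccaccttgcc
Ifrd1: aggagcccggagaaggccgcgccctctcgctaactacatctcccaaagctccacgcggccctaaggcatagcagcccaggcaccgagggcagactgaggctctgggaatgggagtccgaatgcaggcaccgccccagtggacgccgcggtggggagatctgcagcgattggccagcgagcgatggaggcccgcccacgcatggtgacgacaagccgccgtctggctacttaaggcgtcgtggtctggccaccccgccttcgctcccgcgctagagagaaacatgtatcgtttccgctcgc
The element was present at bases -110 to -103 from the start in Atf3, at the same place in Nupr1 and at bases 14 to 21 in Trib3, each time on the opposite strand, and in no place of the Ifrd1 window. It was found in 3.97% of all 32851 promoter windows. Such shares are per window, whereas a gene was counted here and below if any of its windows held the element. Of the 14 stress regulators with a window 4 had it (Atf3, Nupr1, Trib3 and Vldlr), and the cyclic AMP element TGACGTCA, present in 1.79% of all windows, was found in 1 (Ppp1r15a). No stress regulator held both elements. Of the 15 genes with the smallest p for higher values 12 had a window, and 1 of these, Atf3, held the response element. A match says only that these letters are in the window.

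Genes of amino acid supply had differences in both directions in Atf4-/- livers. Of 9 measured genes of amino acid and one-carbon synthesis 2 were higher and 1 lower at an unadjusted limma p under 0.05, against 4.41% and 2.85% of all genes. The median difference was 0.06. Psat1, a serine synthesis gene, had ratios of 0.69 and 1.31 in treated against 0.29 and 0.42 in untreated Atf4-/- arrays, and 18.7 and 23.45 in treated against 0.46 and 1.31 in untreated Atf4+/+ arrays. Its differences were 1.23 ± 0.50 and 4.57 ± 0.50, and the difference between them was -3.34 ± 0.71 (SE, limma adjusted p = 0.623). The treated Atf4-/- arrays were thus above their untreated pair and far below both treated Atf4+/+ arrays. Mthfd2, a mitochondrial one-carbon gene, had 1.01 and 1.19 in treated against 0.59 and 0.88 in untreated Atf4-/- arrays, a difference of 0.54 ± 0.30, beside 2.92 in Atf4+/+ livers (difference between genotypes -2.38 ± 0.42, SE, limma adjusted p = 0.594). Its second probe set went the other way, with 2.23 in Atf4-/- and 0.87 in Atf4+/+ livers. Psph, the last enzyme of serine synthesis, stood at -0.27 ± 0.20 in Atf4-/- and 1.10 in Atf4+/+ livers (difference between genotypes -1.37 ± 0.29, SE, limma adjusted p = 0.615). Asns, asparagine synthetase, stood at 0.06 ± 0.33 and its second probe set at -1.81 ± 0.32, where the treated arrays had 0.39 and 0.41 and the untreated ones 1.59 and 1.71. In Atf4+/+ livers these probe sets of Asns gave 0.97 and 1.83. Their differences between genotypes were -0.92 ± 0.47 and -3.64 ± 0.45 (SE, limma adjusted p = 0.944 and 0.243). The second probe set carries a cross-hybridisation suffix. The treated and untreated arrays overlapped for Phgdh (0.37 ± 0.32), which opens serine synthesis, and for Shmt2 (-0.11 ± 0.24), which passes serine carbon on. Aldh18a1 of proline synthesis was the other higher gene (1.04 ± 0.37, with a second probe set at -0.31 whose groups overlapped) and Got1, the cytosolic aspartate aminotransferase, the lower one (-1.64 ± 0.50). The count of higher genes was 0 without untreated replicate 1 or without treated replicate 2 and 1 without untreated replicate 2 or either treated Atf4+/+ array. For lower genes it was 0 without untreated replicate 1 or without treated replicate 1.

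Aminoacyl-tRNA synthetases, which join amino acids to their transfer RNAs, had 15 of 19 differences above 0 and a median of 0.22 in Atf4-/- livers, beside 0.68 in Atf4+/+ livers. The 4 genes with an unadjusted limma p under 0.05 were Sars, Eprs, Aars and Farsb, against 11 genes in Atf4+/+ livers. Sars, for serine, had ratios of 1.32 and 1.22 in treated against 0.26 and 0.56 in untreated Atf4-/- arrays (1.49 ± 0.33, SE). Eprs, for glutamate and proline, had 1.29 and 1.07 against 0.6 and 0.53 (0.94 ± 0.22), the same difference as in Atf4+/+ livers (0.94). Aars stood at 0.81 ± 0.25 and Farsb at 0.72 ± 0.26. In none of the 4 genes did the groups overlap, but they were chosen by p on these same arrays. The count was 2 without untreated replicate 2 and 2 without treated replicate 1 of the Atf4-/- arrays, and 2 without both untreated arrays whose Atf4 ratio stood against the label. Of the 12 synthetase genes with a promoter window 5 held the response element (Aars, Gars, Iars, Tars and Yars).

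Of 13 amino acid transporters 1 was higher and 2 lower at an unadjusted limma p under 0.05 (median -0.04). Slc38a2, a neutral amino acid carrier gene, had ratios of 1.64 and 1.38 in treated against 0.73 and 0.49 in untreated Atf4-/- arrays (1.20 ± 0.30, SE), and its 3 other probe sets gave 0.71, 1.06 and -0.58. Slc1a5 (-0.66 ± 0.26) and Slc7a7 (-1.39 ± 0.54) were the lower ones, and the count of lower genes was 0 without either untreated array or without treated replicate 2 and 1 without treated replicate 1. Without an Atf4+/+ array it was 1 (either treated one) or 0 (either untreated one). Slc7a11, the cystine carrier gene, stood at 1.25 ± 0.82, Slc7a5 at 0.41 ± 0.26, Slc1a4 at 0.24 ± 0.23 and Slc3a2 at -0.04 ± 0.22, none with a p under 0.05. The translation repressor gene Eif4ebp1 stood at -0.13 ± 0.21.

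Factors of protein synthesis lay slightly on the higher side. Of 21 translation factors 12 had both treated arrays above both untreated Atf4-/- arrays and 2 below, against 21.8% and 22.1% of all genes. The median was 0.22 (0.30 in Atf4+/+ livers). The 4 with an unadjusted limma p under 0.05 were the initiation factor genes Eif1a (0.81 ± 0.30, second probe set 0.76), Eif3d (0.61 ± 0.24), Eif4a2 (0.59 ± 0.22) and Eif3c (0.58 ± 0.22). In the pathway of eIF2 itself 2 of 12 genes were higher, Eif2b4 of the exchange factor (0.81 ± 0.26) and Eif2s2 of eIF2 (0.67 ± 0.26, second probe set 1.08). Without untreated Atf4-/- replicate 2, and without either treated Atf4-/- array, both counts were 0. Without both untreated arrays whose Atf4 ratio stood against the label they were 1 and 0. Without either untreated Atf4+/+ array the second count was 1.

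Chaperones of the endoplasmic reticulum belong to branches of the unfolded protein response that run through ATF6 and XBP1 beside PERK. Of 20 such genes 15 had differences above 0, against 48.9% of all genes. At an unadjusted limma p under 0.05, 3 were higher and 0 lower, against 4.41% and 2.85% of all genes. Both treated arrays lay above both untreated Atf4-/- arrays in 3 and below in 2, against 21.8% and 22.1%. The median was 0.20 in Atf4-/- and -0.07 in Atf4+/+ livers. The mean log2 ratio of the list was 0.36 and 0.17 in treated against 0.34 and -0.36 in untreated Atf4-/- arrays, so the groups overlapped. Xbp1 had ratios of 1.49 and 1.22 in treated against 0.74 and 0.54 in untreated Atf4-/- arrays (0.98 ± 0.24, SE), beside 0.97 in Atf4+/+ livers. Dnajb9, a cochaperone gene, had 1.41 and 1.53 against 0.9 and 0.52 (0.99 ± 0.28, its second probe set 0.66). Hspa5, the gene of the chaperone BiP, had 1.22 and 1.1 against 0.9 and 0.47 (0.74 ± 0.30). The treated arrays were higher in all 3 genes, which were chosen by p on these same arrays. The lowest of the 4 Atf4-/- ratios was each time that of untreated replicate 2. Without that array the count was 1, without treated replicate 1 it was 2, without treated replicate 2 it was 1, and without untreated replicate 1 it was 8. Without both untreated arrays whose Atf4 ratio stood against the label it was 0. Of 17 of these genes with a promoter window 6 held the endoplasmic reticulum stress element (ERSE, in 0.119% of all windows), Hspa5 among them, at bases -65 to -47.

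The 15 genes with the smallest p for higher values in Atf4+/+ livers were followed into the Atf4-/- arrays, which share no sample with them. The fit gives each probe set 1 spread for both genotypes, so a choice by small p also favours small SEs in Atf4-/- livers. There 14 of the 15 had differences above 0, against 48.9% of all genes. At an unadjusted limma p under 0.05, 12 were higher and 1, Dpt, was lower, against 4.41% and 2.85% of all genes. The median difference of these 15 genes was 1.55 in Atf4-/- and 2.92 in Atf4+/+ livers, where the second value is that by which they were chosen. In 14 of the 15 the difference was smaller in Atf4-/- livers. In 8 it was so at an unadjusted limma p under 0.05 (5.21% of all genes in either direction). The choice by Atf4+/+ values favours this direction. Beside the genes described above, Wfs1, an endoplasmic reticulum membrane protein gene, had ratios of 1.41 and 1.53 in treated against 0.51 and 0.34 in untreated Atf4-/- arrays (1.60 ± 0.28, SE, beside 2.46). Eepd1, a nuclease family gene, had 1.68 and 1.47 against 0.42 and 0.53 (1.55 ± 0.28, beside 2.33). The linker histone gene H1f2 stood at 0.92 ± 0.23 beside 2.25 and Arl14ep at 0.89 ± 0.25 beside 2.22. The second probe set of Arl14ep gave 0.25 with overlapping groups in Atf4-/- livers, beside 1.38 in Atf4+/+ livers. Over all probe sets, 135 of the 530 higher ones in Atf4-/- livers (25.5%) were also among the 594 (4.78%) higher ones in Atf4+/+ livers (22.7% of those), and 16 were among the lower ones there. Of the 392 lower ones 42 (10.7%) were also lower in Atf4+/+ livers (7.84% of the 536 there, which were 4.31% of all) and 22 were higher. The Pearson correlation of the 2 differences across all probe sets was 0.175, and both come from 1 fit with a shared spread.

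**Figure D2:**
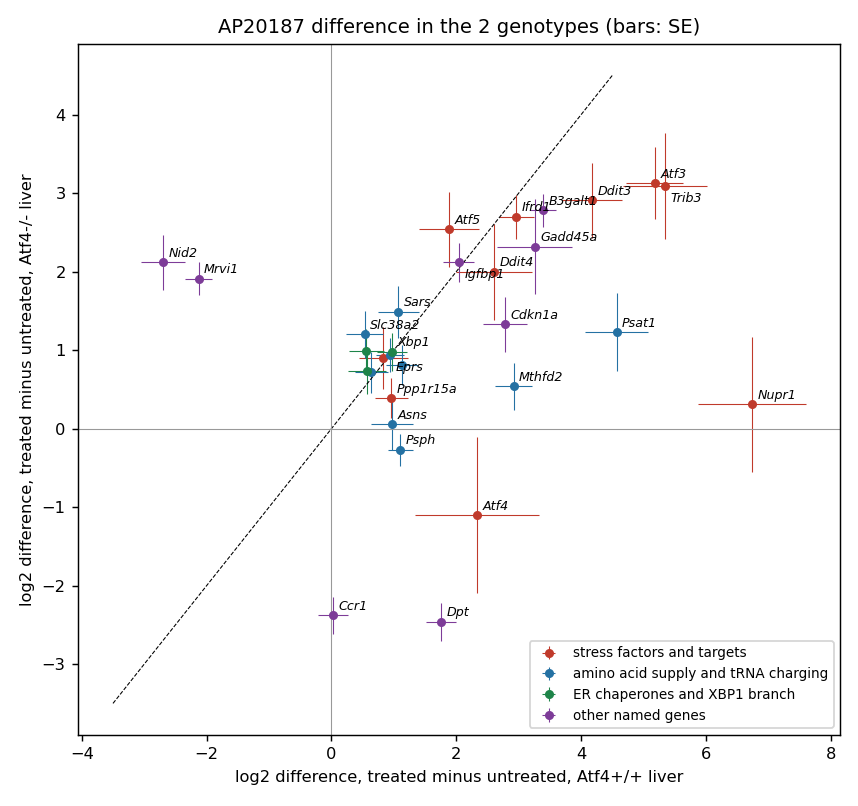
Log2 difference between treated and untreated livers in Atf4-/- mice (vertical axis) against that in Atf4+/+ mice (horizontal axis) for named genes, with bars of 1 SE and a dashed line where both are equal. Ifrd1, Igfbp1, Xbp1 and Eprs lie near the line, Nupr1, Psat1 and Mthfd2 lie far below it, and Mrvi1, Nid2 and Dpt have opposite signs in the genotypes.

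Growth arrest and immediate early genes had higher members in treated Atf4-/- livers. Of 15 growth arrest genes 3 were higher and 0 lower at an unadjusted limma p under 0.05 (median 0.22, beside 0.15 in Atf4+/+ livers). Gadd45a, a stress sensor gene, had ratios of 1.68 and 1.45 in treated against 0.14 and 0.36 in untreated Atf4-/- arrays (2.32 ± 0.60, SE, limma adjusted p = 0.484). Cdkn1a, the gene of the cell cycle inhibitor p21, had 1.31 and 2.25 against 0.69 and 0.56 (1.33 ± 0.35, its second probe set 1.68). In Atf4+/+ livers these probe sets of Cdkn1a gave 2.78 and 2.11. Gadd45g stood at 1.20 ± 0.44 in Atf4-/- livers. The treated arrays lay above the untreated ones in all 3, which were chosen by p on these same arrays. The count was 1 without treated replicate 2. Of 19 immediate early genes 11 had both treated arrays above both untreated Atf4-/- arrays and 0 below (median 0.43), against 21.8% and 22.1% of all genes. The growth regulator gene Myc had 1.23 and 5.04 in treated against 0.05 and 0.77 in untreated arrays (2.86 ± 0.98), with a wide spread in both pairs. Nfil3 (1.28 ± 0.40) and Jun (0.88 ± 0.29), both transcription factor genes, also had an unadjusted limma p under 0.05, and Fos stood at 1.17 ± 0.51 with its second probe set at 0.12. The count of 3 was 1 without untreated replicate 1, 2 without untreated replicate 2, 1 without treated replicate 1 and 2 without treated replicate 2. It was 5 without either treated and 4 without either untreated Atf4+/+ array.

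Acute phase proteins are plasma proteins that the liver secretes in inflammation. Of 22 measured genes 10 had both treated arrays above both untreated Atf4-/- arrays and 0 below, against 21.8% and 22.1% of all genes. The median was 0.27 (0.39 in Atf4+/+ livers). Apcs, the gene of serum amyloid P, had ratios of 1.41 and 1.22 in treated against 0.78 and 0.34 in untreated arrays (1.18 ± 0.38, SE), and Fgb of fibrinogen stood at 0.70 ± 0.28. These were the 2 with an unadjusted limma p under 0.05. The count was 0 without untreated replicate 2 or without treated replicate 1, 1 without treated replicate 2 and 9 without untreated replicate 1. Without either untreated Atf4+/+ array it was 1. The mean log2 ratio of the list was 0.25 and 0.13 in the treated against 0.20 and -0.42 in the untreated Atf4-/- arrays. Among these 4 arrays untreated replicate 2 alone was low. In Atf4+/+ livers the mean was 0.23 and 0.38 in treated against -0.45 and -0.19 in untreated arrays, so both untreated ones were low there.

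Lipid synthesis lay on the lower side. Of 12 genes of fatty acid synthesis 11 had differences below 0, and 8 had both treated arrays below both untreated Atf4-/- arrays, against 22.1% of all genes. At an unadjusted limma p under 0.05, 3 were lower, against 2.85% of all genes. Their median was -0.67 in Atf4-/- and -0.63 in Atf4+/+ livers. Thrsp, a lipogenic regulator gene, had ratios of 0.31 and 0.7 in treated against 1.13 and 2.34 in untreated Atf4-/- arrays (-1.60 ± 0.44, SE, limma adjusted p = 0.509). Acly, which makes cytosolic acetyl-CoA, had 0.65 and 0.66 against 1.11 and 1.2 (-0.73 ± 0.24). Fasn, fatty acid synthase, had 0.47 and 0.73 against 0.91 and 2.49 (-1.23 ± 0.59, limma adjusted p = 0.708) and was not among the 3, its unadjusted p being above 0.05. Untreated replicate 2 was the highest of the 4 Atf4-/- arrays for Thrsp, Acly and Fasn. Scd2, a desaturase gene, was the third lower gene, at -0.69 ± 0.28 with its second probe set at -0.04. The count of 3 was 0 without untreated replicate 2, 6 without untreated replicate 1, 0 without treated replicate 1 and 1 without treated replicate 2. The mean log2 ratio of the list was -0.33 and -0.11 in the treated against 0.02 and 0.86 in the untreated Atf4-/- arrays. Of 16 genes of cholesterol synthesis 0 were lower at that p in Atf4-/- livers (median -0.25) and 7 were in Atf4+/+ livers (4.4% of all genes, median -1.10). Dhcr7 stood at -0.69 ± 0.42 and Mvd at -0.46 in Atf4-/- livers, and 1 gene of the list had an unadjusted limma p under 0.05 for the difference between genotypes (5.21% of all genes).

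In glucose metabolism, the growth hormone axis and antioxidant defence 1 gene each was higher and 1 lower at an unadjusted limma p under 0.05, of 18, 15 and 17, which is near the 4.41% and 2.85% of all genes. Irs2, the insulin receptor substrate gene of the liver, had ratios of 0.5 and 1.05 in treated against 2.4 and 2.24 in untreated Atf4-/- arrays (-1.54 ± 0.37, SE, limma adjusted p = 0.462), beside -0.97 in Atf4+/+ livers. Pgm2, a phosphoglucomutase gene, had 0.88 and 1.2 against 0.21 and 0.14 (2.05 ± 0.38). These were the lower and the higher gene at that p among 18 of glucose metabolism (median -0.11). Of the growth hormone axis, with 15 genes, Igfbp1 was higher and Stat5b, a growth hormone signal transducer gene, lower (-0.73 ± 0.28). Cyp1a1, a cytochrome P450 gene known as a target of the aryl hydrocarbon receptor, had 4.82 and 2.27 in treated against 1.07 and 0.93 in untreated Atf4-/- arrays (1.64 ± 0.36, limma adjusted p = 0.446). Its difference was -0.35 in Atf4+/+ livers (difference between genotypes 1.99 ± 0.52), and its second probe set gave -0.17. Among 17 antioxidant genes Srxn1, which repairs oxidised peroxiredoxin (1.43 ± 0.32, second probe set 0.07), was higher and Gsta4, a glutathione transferase gene (-1.45 ± 0.54), lower. Stat5b had a p above 0.05 without any single Atf4-/- array, and Gsta4 without untreated replicate 1 or without either treated array, so that the count of lower genes in their lists was then 0. Without untreated replicate 2 the counts of higher genes were 2 for glucose metabolism and 2 for the antioxidant genes, and without untreated replicate 1 that of the growth hormone axis was 2. Without either treated Atf4+/+ array 2 glucose genes were lower.

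Large cell machines showed small shifts. Of 35 proteasome genes 27 had differences above 0, against 48.9% of all genes, with a median of 0.18 (-0.11 in Atf4+/+ livers). In 19 of them both treated arrays lay above both untreated Atf4-/- arrays, against 21.8% of all genes. The mean log2 ratio of the proteasome list was 0.24 and 0.08 in treated against 0.11 and 0.02 in untreated Atf4-/- arrays, so the groups overlapped. Genes of a list are not independent replicates, so such counts are a description. Of 41 respiratory chain genes 32 had differences below 0, with a median of -0.12 (-0.31 in Atf4+/+ livers). In 17 of them both treated arrays lay below, against 22.1% of all genes. At an unadjusted limma p under 0.05 there were 0 higher and 1 lower proteasome genes and 0 higher and 1 lower respiratory chain genes. Without untreated replicate 2 the lower gene was lost from both lists. The proteasome count was also 0 without untreated replicate 1 or treated replicate 2, and 2 without treated replicate 1. Without any single Atf4+/+ array the proteasome count was 0, and without either untreated one 2 respiratory chain genes were lower. In the urea cycle and amino acid breakdown, with 23 genes, 0 were higher or lower (median -0.06), and of 8 hepatocyte markers 0 were either (median -0.10, from -0.57 to 0.38). A ratio to a probe set's own median holds no level, so liver identity could not be read from these markers.

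**Figure D3:**
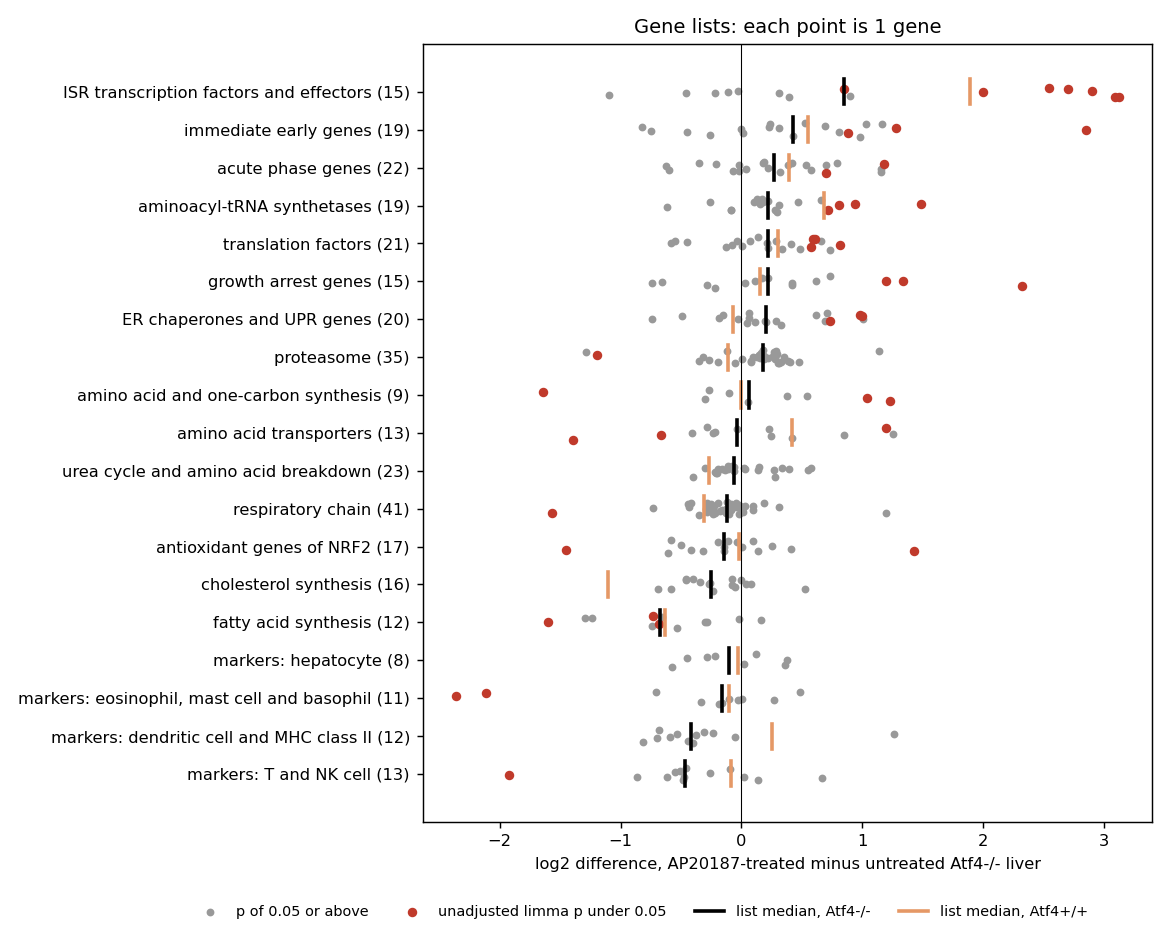
Log2 difference between treated and untreated Atf4-/- livers for each measured gene of 19 lists, with red points at an unadjusted limma p under 0.05, the list's median as a black bar and its median in Atf4+/+ livers as an orange bar, and the number of genes in brackets. The stress regulators have the highest median (0.85) and fatty acid synthesis the lowest (-0.67) among the lists drawn.

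The lower genes with the smallest p were led by markers of cells other than hepatocytes. Dpt, dermatopontin of the extracellular matrix, had ratios of 0.3 and 0.38 in treated against 2 and 2.67 in untreated Atf4-/- arrays (-2.46 ± 0.24, SE, limma adjusted p = 0.119). In Atf4+/+ livers it had 1.57 and 1.56 in treated against 0.35 and 0.44 in untreated arrays, so the direction there was opposite. Ccr1, a chemokine receptor gene of myeloid cells, had 0.61 and 0.57 in treated against 2.98 and 4.08 in untreated Atf4-/- arrays (-2.38 ± 0.24, limma adjusted p = 0.119), and all 4 Atf4+/+ arrays lay between 0.5 and 0.62. Ccr3, the eotaxin receptor gene of eosinophils, had 0.27 and 0.36 against 2.11 and 1.94 (-2.36 ± 0.36). Il5ra, the interleukin 5 receptor gene of the same cells, had 0.09 and 0.22 against 0.73 and 1.27 (-2.11 ± 0.35). In each of these 4 genes the untreated Atf4-/- arrays were above all 6 other arrays. Itgae, an integrin gene of resident T cells, had 0.3 and 0.25 against 1.03 and 1.64 (-1.91 ± 0.32, second probe set 0.14), with the Atf4+/+ arrays at 0.97 and 0.6 in treated and 1.65 and 1.38 in untreated livers. Ptger3, a prostaglandin E receptor gene, stood at -1.94 ± 0.35 with its second probe set at 0.00, Gbp2b, an interferon-induced GTPase gene, at -2.67 ± 0.59, Esrp1, an epithelial splicing regulator gene, at -2.36 ± 0.45, Myo1e, a myosin gene, at -1.84 ± 0.41, and S100a4 at -1.45 ± 0.29. The remaining lower genes were the potassium channel gene Kcna2, the band 4.1 family gene Epb41l4a (second probe set 0.05), the kinetochore gene Ska3, the contactin gene Cntn3 and Fam102a, between -1.86 and -1.07.

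Whole lists of cell type markers were then counted, for which a bulk tissue cannot tell fewer cells of a type from less RNA per cell. Of 11 markers of eosinophils, mast cells and basophils 2 were lower, Ccr3 and Il5ra, and 0 higher at an unadjusted limma p under 0.05, with a median of -0.16. Epx, the peroxidase gene that defines eosinophil granules, had ratios of 0.22 and 0.2 in treated against 0.29 and 0.29 in untreated Atf4-/- arrays. The mean log2 ratio of that list was -0.63 and -0.47 in treated against -0.29 and 0.14 in untreated Atf4-/- arrays. Of 13 T and NK cell markers 10 had differences below 0 and 1, Cd3g (-1.92 ± 0.58), had an unadjusted p under 0.05, with list means of -0.29 and -0.25 in treated against 0.04 and 0.25 in untreated arrays. Of 12 dendritic cell and MHC class II genes 11 had differences below 0 (median -0.42, 0.25 in Atf4+/+ livers) and 0 passed that p, with means of 0.04 and 0.07 in treated against 0.48 and 0.27 in untreated arrays. Of 14 macrophage markers 1, Ccr1, was lower (median -0.20). Of 22 stellate cell and fibroblast markers Dpt and Loxl1 (-0.77 ± 0.24) were lower (median -0.11). Without untreated replicate 2 the counts of lower genes were 3 for macrophages and 2 for dendritic cells and MHC class II. Without treated replicate 1 that for T and NK cells was 0, without untreated replicate 1 or either untreated Atf4+/+ array it was 2, and without treated replicate 2 that for stellate cells and fibroblasts was 1. Without either untreated Atf4+/+ array the stellate cell and fibroblast count was 3. The part of these cells in the lower genes was not tested. Among the 392 lower probe sets 27.0% had a median ratio under 0.99 over the 8 arrays, against 10.4% of the 530 higher ones and 14.2% of all, and the scaling of such probe sets is not known.

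**Figure D4:**
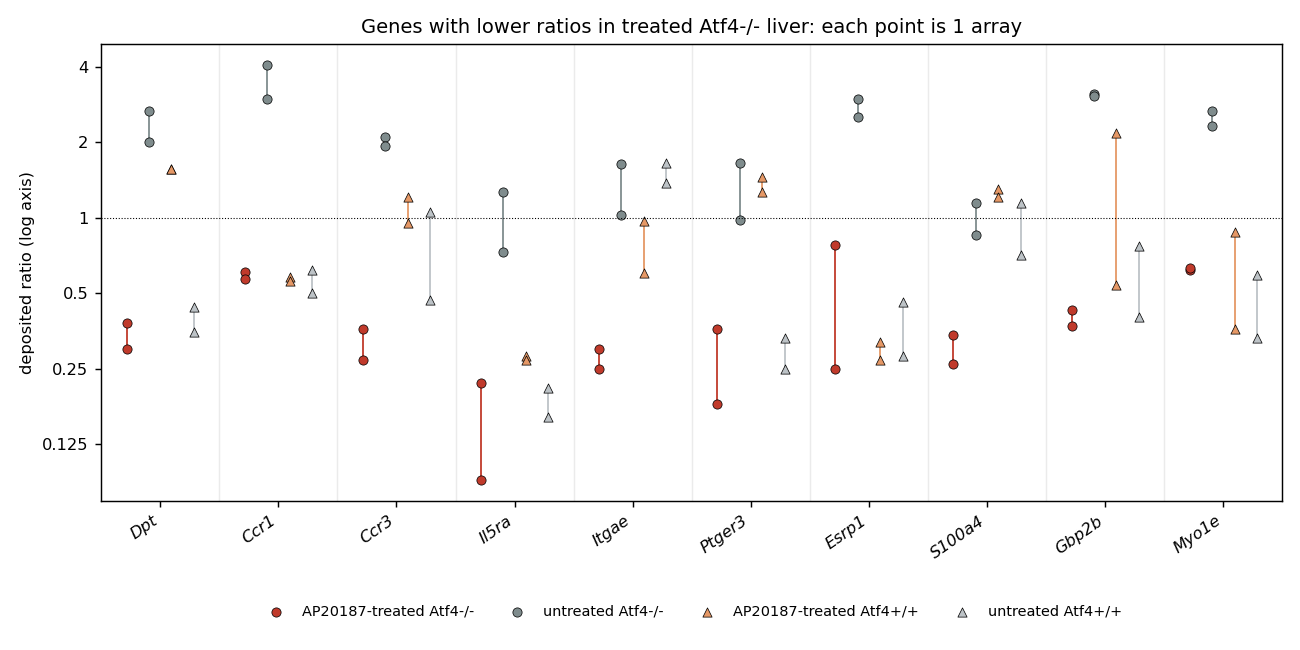
Deposited ratios on a log axis of 10 of the 15 genes with the smallest p for lower values in treated Atf4-/- livers, 1 point an array and a line between the 2 arrays of a group. The untreated Atf4-/- arrays lie above every other array for Dpt, Ccr1, Ccr3, Il5ra, Esrp1, Gbp2b and Myo1e.

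The genes with the smallest p were also sorted by which arrays stood apart. Among the 15 higher genes both untreated Atf4-/- arrays lay below all 6 other arrays in 10, against 5.66% of all genes. In 1 higher gene, H2aj, both treated Atf4-/- arrays lay above all others (3.18% of all genes). Among the 15 lower genes the untreated Atf4-/- arrays lay above all others in 9 (5.47% of all genes) and the treated ones below all others in 6 (2.53%). These genes were chosen on the same arrays, so the shares are a description. Ilf2, a double-stranded RNA binding protein gene, had ratios of 1.07 and 1.16 in treated against 0.08 and 0.11 in untreated Atf4-/- arrays (2.64 ± 0.32, SE), with 0.99 and 0.59 in treated and 1.57 and 1.01 in untreated Atf4+/+ arrays. Rrm2, a ribonucleotide reductase subunit gene, had 0.98 and 1.19 against 0.26 and 0.21 (1.82 ± 0.22), and Yme1l1, a mitochondrial protease gene, 0.85 and 1.04 against 0.12 and 0.19 (2.04 ± 0.26, second probe set 0.31). For these 3 genes all Atf4+/+ arrays, treated or not, lay above both untreated Atf4-/- arrays. Gmppb, of mannose activation (1.63 ± 0.22), Rpl13a, a ribosomal protein gene (1.36 ± 0.22), and Fermt2, a kindlin gene of cell adhesion (1.35 ± 0.22), were higher with AP20187 in Atf4+/+ livers too (1.01, 1.21 and 0.85). The others were Il1f5, an interleukin 1 family gene (2.32), Nid2, a basement membrane gene (2.12), Mrvi1, a substrate gene of cyclic GMP kinase (1.91), Chrnd, an acetylcholine receptor subunit gene (1.52), and H2aj, a histone variant gene (1.52).

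When all 4 untreated arrays of both genotypes served as the comparison for the treated Atf4-/- arrays, several genes set apart by the untreated Atf4-/- arrays had smaller differences. For genes sorted in that way a smaller difference was fixed in advance, so this comparison cannot test their response. The differences of stress genes were then 3.02 for Atf3, 3.03 for Ddit3, 3.25 for Trib3 and 2.57 for Ifrd1. Those of B3galt1 and Igfbp1 were 2.52 and 2.07. Ifrd1 and B3galt1 are also among the genes set apart by the untreated Atf4-/- arrays. Ilf2 had 1.24, Il1f5 1.05, Nid2 0.67, Dpt -1.32, Ccr1 -1.15 and Esrp1 -1.05. The count of stress regulators higher at an unadjusted limma p under 0.05 was 8 of 15 with that comparison.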

How the data were processed

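RNA of mouse liver was measured on 8 arrays, per the labels, whose probe sets are those of Affymetrix MG-U74Av2 in the platform annotation. The values are linear ratios, as deposited by the authors in the series table. For 85.8% of probe sets the ratio is to the probe set's own median over the 8 arrays, found here from the values, and neither the scaling of the others nor any earlier step is stated in what was used here. Depth in reads does not apply, and 2 arrays a group limit the precision. Of 12488 probe sets, 66 control probe sets were left out and 12422 were tested on log2(ratio + 0.1) with limma 3.58.1 in R 4.3.3 (4 group means, 8 arrays, moderated variance, Benjamini-Hochberg adjustment, two-sided, threshold 0.05). The fit was tested on simulated data. Genes were named through the platform annotation, where 10833 probe sets name 1 gene, 396 several and 1193 none, and 10817 matched the RefSeq gene table. For a gene with several probe sets, the one used had a median ratio of at least 0.99, then no cross-hybridisation suffix, then the smallest spread within groups.

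Groups were taken from the source names, except that of untreated Atf4+/+ replicate 1, which was taken from its description. The genes and lists described were chosen with earlier results of these data known, and lists are given as counts with no set test. The genes named were Atf4 and Eif2ak3, the 15 genes with the smallest p in each direction, up to 4 with the smallest p in each list, known ATF4 and CHOP targets, the 10 with the smallest p in each direction for the difference between genotypes, and the 15 with the smallest p for higher values in Atf4+/+ livers. The rankings passed over clones, predicted genes and those on the sex chromosomes. Cebpg, Mvd and the synthetase genes named with a motif were named after their values were seen. Alternatives covered the pseudocount, centring and quantile scaling, filters on dim probe sets, variance models, array weights, other groupings and leaving out arrays. Promoter windows are RefSeq sequences (GRCm38.p6).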

Additional observations from a re-analysis of the deposited data

Results flagged for a closer look

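In 383 of 8251 genes (4.64%) both treated arrays lay above both untreated arrays in one genotype and below both in the other. The 18 given here are those among the genes recomputed under the alternatives and the 10 with the smallest p in each direction for the difference between genotypes. The difference between the genotypes (Atf4-/- minus Atf4+/+, log2) was tested in limma, and none of the 18 passed an adjusted p of 0.05. It was positive for Nid2 (4.82), Mrvi1 (4.03, limma adjusted p = 0.0666), Ilf2 (3.29), Il1f5 (3.22), Cfc1 (2.67), Cep295nl (2.24), Rrm2 (2.11), Cyp1a1 (1.99) and Tdo2 (1.5). It was negative for Dpt (-4.22, limma adjusted p = 0.0692), Ptger3 (-3.85), Isg20 (-3.05), Myh3 (-3.03), Ccl5 (-2.57), Il5ra (-2.51), Slc7a7 (-2.26), S100a4 (-1.88) and Psph (-1.37). Mrvi1 had ratios of 1.74 and 1.8 in treated against 0.43 and 0.37 in untreated Atf4-/- arrays, and 0.31 and 0.32 in treated against 1.57 and 1.87 in untreated Atf4+/+ arrays. Nid2, of basement membranes, had 0.98 and 0.68 against 0.06 and 0.18 in Atf4-/- and 0.18 and 0.11 against 1.61 and 1.36 in Atf4+/+ arrays. The genes were picked by these values, and no cause was tested.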

How the results depend on the processing

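No probe set passed an adjusted limma p of 0.05 for treated against untreated Atf4-/- livers under the settings tried, except that 1 passed when all probe sets of a gene were averaged (B3galt1, adjusted p = 0.0389) and 1 at an adjusted p of 0.1. For the difference between genotypes 2 (Mrvi1 and Dpt) passed among probe sets with a median ratio of at least 0.99, 2 with averaged probe sets and 2 at an adjusted p of 0.1. Filtering and averaging test fewer features, and the cause was not tested further. At an unadjusted p under 0.05 leaving out 1 array gave 682 to 992 probe sets for the Atf4-/- difference and 556 to 1070 for the difference between genotypes, the highest without treated Atf4+/+ replicate 1. Without treated Atf4-/- replicate 2, 350 were higher and 368 lower, against 530 and 392, and the share higher was 48.7%, against 57.5%. The difference of B3galt1 ran between 1.75 (pseudocount 0.5) and 3.22 (pseudocount 0.02).

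Signs turned in values that did not pass the test. With untreated Atf4-/- replicate 1 grouped as Atf4+/+, Nupr1 had -0.48, Asns -0.07, Slc3a2 0.03, and the difference between genotypes was -0.53 for Atf5 and -0.15 for Igfbp1. Against all 4 untreated arrays Slc3a2 had 0.16 and Crk -0.02. Without both untreated arrays whose Atf4 ratio stood against the label, chosen after seeing the data, Eif2ak3 had -0.50 and Eif4ebp1 0.01. Averaged probe sets gave -0.88 for Asns. Leaving out 1 array gave ranges of -0.85 to 1.47 for Nupr1, -0.27 to 0.38 for Asns, -0.18 to 0.10 for Slc3a2, -0.50 to 0.62 for Eif2ak3, -0.28 to 0.01 for Eif4ebp1 and -0.26 to 0.05 for Shmt2. For the difference between genotypes they were -0.06 to 1.36 for Atf5, -0.12 to 0.29 for Igfbp1, -1.59 to 0.36 for Ddit4 and -0.59 to 0.07 for Ifrd1. A group left with 1 array is assumed to vary like the others. No paired analysis was possible because the labels give no replicate numbers.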

Other observations

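The further lists held few genes at an unadjusted limma p under 0.05 in Atf4-/- livers, where 4.41% of all genes were higher and 2.85% lower at that p, and none passed the test over all probe sets. Of 7 cholangiocyte markers 1 was higher at an unadjusted limma p under 0.05, Krt18, a keratin gene that hepatocytes also express. It was named after its values were seen, and its ratio was 2.38 and 2 in treated against 0.86 and 0.58 in untreated Atf4-/- arrays. Of 23 cytochrome P450 and drug metabolism genes 2 were higher, Cyp1a1 and Cyp3a16, with a list median of -0.16, and the count was 1 without treated replicate 2. Of 28 ribosomal protein genes 2 were higher and 0 lower (median 0.09), Rpl13a among them, and the count was 1 without any single array. Of 22 interferon-induced genes 2 were higher and 0 lower (median 0.07, 0.20 in Atf4+/+ livers), and the count was 1 without any single array other than the untreated Atf4-/- ones. Of 31 secreted hepatocyte proteins 20 had differences below 0 (median -0.09). Both treated arrays lay below both untreated arrays in 11 and above in 0, against 22.1% and 21.8% of all genes. Ttr, whose promoter drives the transgene, had ratios of 0.98 and 0.93 in treated against 1.43 and 1.25 in untreated Atf4-/- arrays (-0.45 ± 0.28, SE).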
